A study of Mus musculus with 2 samples.

Results

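The cells described here were macrophages of the infarcted mouse heart that were high in Gdf15, together with Cxcr4 and Pla2g7. They numbered 1404 of the 7185 macrophages that passed the gate described next, among 22084 cells kept in 2 single-cell libraries. The mice carried p16-2A-CreER, which drives tamoxifen-dependent Cre from the p16 locus, and R26-mTmG, a reporter that changes from membrane tomato to membrane GFP after recombination. All of them had a myocardial infarction (MI) and were given tamoxifen 5 days later, and cells of the infarct zone were taken on day 7 after MI, with cardiomyocytes pelleted away. The cells were sorted into GFPhi and GFPlo fractions, which gave 1 library each. The labels do not state the number of mice, their sex or their age. GFP marks cells in which the p16 promoter was active around tamoxifen, and their descendants, not cells with p16 at harvest. With 1 library per fraction there was no replicate and no test was possible, so every interval is an exact 95% interval that covers counting error only, and differences between mice were not measured.

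Members were chosen from the values themselves. A gated macrophage had at least 300 genes, at least 500 UMIs (unique molecular identifiers, each standing for a captured transcript), at most 20% mitochondrial UMIs, at least 30 UMIs of C1qa, C1qb and C1qc per 10000, and fewer than 3 UMIs of the cycling genes Mki67, Top2a and Birc5. Each gated cell was given 4 scores from summed UMIs per 10000, log-transformed and standardised over the gated cells. The R score used Cd163, Cbr2, Folr2 and Timd4, genes of resident macrophages. The L score used Mmp12, Gpnmb and Atp6v0d2, genes of lipid-associated macrophages, the M score used the MHC class II genes H2-Aa, H2-Ab1 and H2-Eb1, and the G score used Gdf15, Cxcr4 and Pla2g7. A member had the G score as its highest and above 0.5. Cells with another score highest and above 0.5 are called the R, L and M classes, and the rest are called unclassed. These are ranges of scores and not separate cell types. Because the rule required the other scores to be lower than G, genes that travel with R or M were set low in members by the choice. Against the L class, so were genes that travel with L. Against all other gated GFPhi macrophages the L score was not low, with a median of 0.336 in members and -0.294 in the others. All ratios below are descriptions.

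Gdf15 encodes a secreted stress cytokine of the TGF-beta family, known to be induced in injured heart and in stressed macrophages. Its receptor, GFRAL with RET, is known from the hindbrain. Cxcr4 is the receptor of the chemokine CXCL12 and takes part in leukocyte retention and trafficking. Pla2g7 encodes a secreted phospholipase that inactivates platelet-activating factor and cleaves oxidised phospholipids. In infarcted heart, macrophages clear dead cells and their iron and lipid, and pass through inflammatory and reparative states.

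The start-site regions of Gdf15 and Cxcr4, which name these cells, and of Apoe, the most abundant gene that was higher in them, are shown from RefSeq (GRCm38.p6), as the 250 bases before a start. They lay on the minus strand at chr8:70632457-70632706, chr1:128592300-128592549 and chr7:19699189-19699438, upstream of annotated exons, and none held any of the motifs searched.
Gdf15: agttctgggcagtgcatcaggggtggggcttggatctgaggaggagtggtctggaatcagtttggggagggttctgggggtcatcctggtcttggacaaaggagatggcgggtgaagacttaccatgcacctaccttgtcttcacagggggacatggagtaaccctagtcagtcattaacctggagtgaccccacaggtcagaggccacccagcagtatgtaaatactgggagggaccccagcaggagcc
Cxcr4: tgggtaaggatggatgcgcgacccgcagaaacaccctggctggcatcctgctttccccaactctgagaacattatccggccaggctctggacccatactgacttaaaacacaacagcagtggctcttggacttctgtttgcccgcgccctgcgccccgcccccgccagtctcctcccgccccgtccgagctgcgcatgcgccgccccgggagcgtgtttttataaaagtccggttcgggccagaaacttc
Apoe: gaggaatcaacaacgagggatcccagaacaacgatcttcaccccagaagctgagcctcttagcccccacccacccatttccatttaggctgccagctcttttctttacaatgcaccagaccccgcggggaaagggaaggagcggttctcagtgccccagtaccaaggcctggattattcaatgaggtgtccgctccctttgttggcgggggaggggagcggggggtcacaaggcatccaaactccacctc
The motifs were searched on both strands of windows from 250 bases before to 50 bases after a start. They were the stress element CARE (TGATGNAA), the AP-1 site (TGANTCA), the E-box of lysosomal regulators (CACGTG), the antioxidant element (TGACNNNGC) and the p53 half-site. Of 32851 such windows, 3.97%, 7.81%, 7.15%, 12.4% and 8.36% held them. Across the windows of Gdf15, Cxcr4, Pla2g7, Apoe and Sqstm1, 3 matches were found, shown in capitals in stretches of 30 bases. A second start of Gdf15, inside a first exon of the longer transcript (chr8:70632161-70632190, minus strand), had an E-box. Pla2g7 had an antioxidant element at its start in an exon (chr17:43568439-43568468, plus strand). A second start of Apoe had a CARE match outside annotated exons (chr7:19698682-19698711, minus strand).
Gdf15 second start: cacagggcagggCACGTGtgagcatccagt
Pla2g7: cgccccccagGCACAGTCAggatccacgca
Apoe second start: tacctactgatTTCCATCAcagtccccaag
A match is a run of letters and not a measured site.

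All 1404 members came from GFPhi, where they were 19.7% of 7137 gated macrophages (18.8–20.6) and 13.9% of the 10125 kept cells. GFPlo had 48 gated macrophages, and 0 of these were members, which allows a share of up to 7.40% by the exact interval. The R, L and M classes and unclassed cells held 16.5%, 21.5%, 22.1% and 20.2% of the gated GFPhi cells. Of the GFPlo cells, 7 were R, 3 L, 26 M and 12 unclassed, so members were compared with other macrophages within GFPhi. The libraries held 91343549 and 104855204 UMIs and shared 94 barcodes, 11 of them carried by members. Median depth was 6961 UMIs in members, 6605 in R, 9661 in L, 5899 in M and 5752 in unclassed cells. Median mitochondrial shares were 2.29%, 2.62%, 2.26%, 2.11% and 2.30% in the same order, and ribosomal shares 17.4%, 14.1%, 16.2%, 18.9% and 18.2%.

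Members carried macrophage markers, as did the other gated classes, all of them chosen by the C1q genes of macrophages. The 8 macrophage markers, among them Adgre1, Csf1r, Cd68 and Mertk, summed to 18683 CPM in members (CPM scales the UMIs of a gene to a fixed total over the cells summed). The sum was 14398 to 18100 CPM in the other classes and 454 CPM in fibroblast reference cells. All 8 were detected in members. The defining markers of mast cells (4 of 4) were at 0, and the 6 dendritic cell markers summed to 1.65 CPM and the 4 erythroid markers to 5.42 CPM. The erythroid sum was 323 CPM in the R class. Monocyte markers summed to 27.9 CPM in members and 224 CPM in M. Fibroblast markers summed to 292 CPM in members, 211 to 258 in the 3 other classes, 824 in unclassed cells and 18926 CPM in fibroblast reference cells. T and NK cell markers, mainly Il7r, stood at 100.3 CPM against 222 CPM in L. The 5 endothelial markers summed to 175 CPM in members, 91.0 in R, 434 in L, 103 in M and 98.3 CPM in unclassed cells. Most of this was Fabp4 (161 CPM in members), while Cdh5 stood at 0.775 CPM. Neutrophil markers, mainly Csf3r, summed to 46.6 CPM against 34.0 to 49.6 CPM in the other classes, and B cell markers to 58.0 CPM against 29.4 in L and 178 CPM in M. The part of other cells' RNA in the results was not tested.

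Gdf15 (chr8:70629393-70632456, minus strand, mm10) made up 88.0% of the G UMIs of members, Pla2g7 7.75% and Cxcr4 4.29%, so the class was in the main a Gdf15 class. Gdf15 stood at 3032 CPM in members, 185 in R, 649.8 in L, 229 in M and 75.8 CPM in unclassed cells, and at 21.5 CPM (5 UMIs) in the GFPlo macrophages. Members held 68.0% of the Gdf15 UMIs of gated macrophages with 19.3% of all their UMIs, and 58.1% of the 53915 Gdf15 UMIs of GFPhi. In a member cell the level ran from 6.78 (10th percentile) over a median of 24.0 to 60.0 UMIs per 10000 (90th percentile), with at most 115 UMIs. Of the tenth of gated cells highest in Gdf15 (714 cells), 626 were members, 64 L, 19 M and 5 R. Without Gdf15 UMIs there were 52 members, chosen through the other 2 genes.

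Cxcr4 (chr1:128588199-128592293, minus strand) and Pla2g7 (chr17:43568098-43612201, plus strand) set members apart much less. Cxcr4 stood at 148 CPM in members, 38.02 in R, 70.6 in L, 75.7 in M and 78.9 in unclassed cells. Pla2g7 stood at 267 CPM in members and between 155 and 175 CPM in the other classes. Of the members, 607 (43.2%) had UMIs of all 3 genes, 590 (42.0%) of 2 and 207 (14.7%) of 1. These levels are what the rule selected, and they carry no test.

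**Figure D1:**
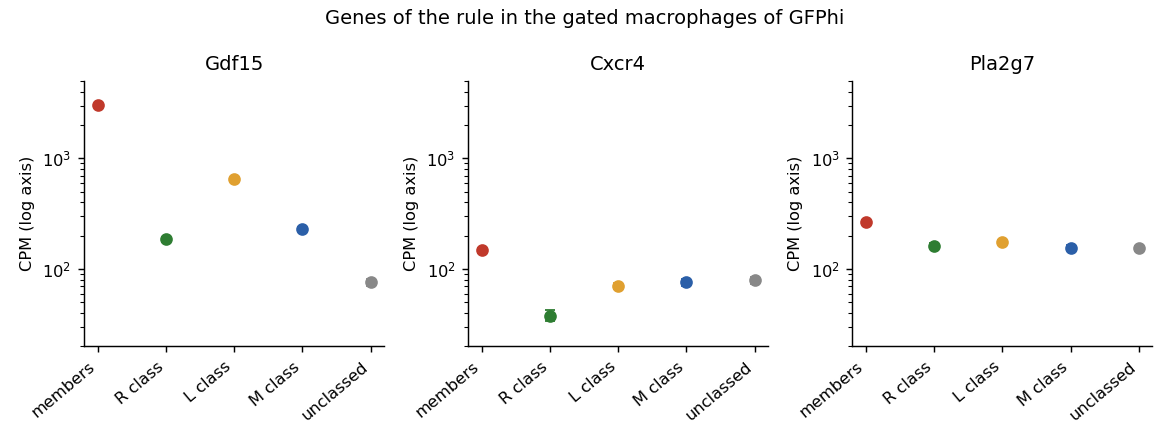
Levels of Gdf15, Cxcr4 and Pla2g7 (CPM, log axis) in the members and other gated macrophages of GFPhi, with exact 95% Poisson intervals, many smaller than the points. Gdf15 separates members from the other classes by more than the other 2 genes do.

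Cells lay on both sides of the limit without a gap. Just inside it, 71 members (5.06%) had a G score of 0.5 to 0.6 and a median G sum of 9.85 per 10000. Just outside, 56 cells with G highest had scores of 0.4 to 0.5 and a median of 8.69. The G score led the next score by less than 0.5 in 443 members (31.6%).

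With every cell thinned to 1000 UMIs, a Gdf15 UMI was seen in 82.3% of members (80.1–84.3), 30.4% of L, 12.6% of M, 9.62% of R and 7.001% of unclassed cells. In the reference cells, fibroblasts and endothelial cells of GFPhi with low C1q, it was 2.56% and 4.74%. Whether these UMIs were free RNA or the cells' own Gdf15 was not tested. Unthinned, the share was 96.3% in members at a median of 6961 UMIs and 25.8% in the fibroblasts at 22267 UMIs. Cxcr4 was seen in 13.6% of thinned members against 3.55% to 8.41% in the other classes and 0.334% in fibroblasts, and Pla2g7 in 24.1% against 12.97% to 15.2% and 0.445%.

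**Figure D2:**
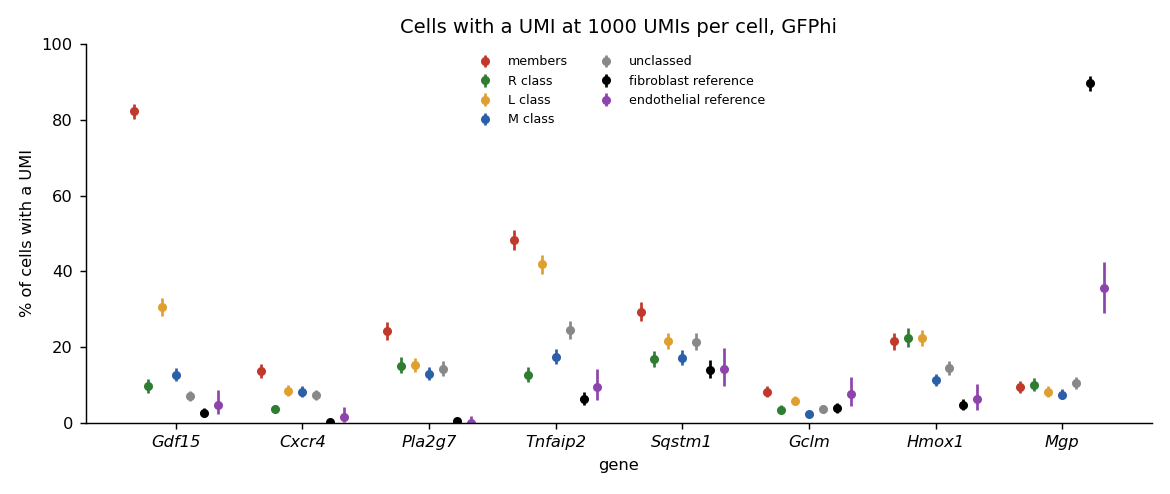
Share of cells (%) with at least 1 UMI of each gene after thinning every cell to 1000 UMIs, with exact 95% intervals, in members, other macrophage classes and reference cells of GFPhi. Tnfaip2 and Sqstm1 were seen more often in members than in the other classes, Hmox1 was not, and Mgp was seen most often in fibroblasts.

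Beyond the rule genes, the members differed from all other gated macrophages by modest ratios, and more genes were lower than higher. The rule required the other scores to be lower than G, so lower genes that travel with R or M were set by the choice. For genes that travel with L this holds against the L class. Of 7064 genes with at least 10 CPM in either arm, 8 were at least 2-fold higher in members than in all other gated macrophages (0.113%) and 108 at least 2-fold lower (1.53%). The higher count was 118 with no minimum level, 13 as a mean over cells or with a G score over 1.0, and 19 for the 679 members with no other score over 0.5, the last chosen after the values were known. The lower count was 862 with no minimum level. The median ratio of all these genes was 0.961. The 8 were Adra1a, Slc40a1, Osgin1, Ankrd33b, Fcrl1, Srxn1, Tnfaip2 and Hmox1, of which Adra1a, Ankrd33b and Fcrl1 are named after their values were seen. Against single classes, 110 genes were at least 2-fold higher and 616 lower than in R (1.46% and 8.19%), 75 and 47 than in L (1.09% and 0.686%), and 120 and 181 than in M (1.69% and 2.56%). Only 13 of 7684 genes were at least 1.5-fold higher than in each of R, L and M (0.169%), and 22 at least 1.5-fold lower than in each (0.286%).

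Apoe (chr7:19696109-19699188, minus strand), the apolipoprotein that carries cholesterol out of macrophages, was among those 13. It stood at 27352 CPM in members, 17197 in R, 15072 in L, 14139 in M and 20159 CPM in unclassed cells, 1.68 times the level of all others (1.67–1.68). It was seen in 98.97% of thinned members and in 45.9% of the fibroblast reference cells. Sqstm1 (chr11:50199366-50210827, minus strand), the autophagy receptor p62, was also higher than in each class, at 396 CPM against 186, 257 and 209.5 CPM in R, L and M. Txnrd1, a thioredoxin reductase, stood at 121 CPM, 1.92, 1.496 and 1.64 times the levels of R, L and M. Gadd45b, a stress-response gene, stood at 1263 CPM, against 548, 842 and 855 CPM. Matn4, which encodes a matrix protein, stood at 63.2 CPM against 33.1 to 41.3 CPM.

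Some of the other higher genes stood closer to the L class than to R and M. Tnfaip2 stood at 787 CPM in members and 590.2 in L, against 209 in R and 268 CPM in M. Clec4d, a C-type lectin receptor, stood at 417 CPM in members and 395 in L, against 92.2 CPM in M. Gadd45a, Airn, whose gene overlaps Igf2r on the opposite strand, and Ndrg1 were 1.05, 1.09 and 1.24 times the L level. Their ratios were 3.29, 2.48 and 3.702 over R. The neutrophil attractant Cxcl1 stood at 534 CPM against 332 CPM in all others, and the chemerin-binding receptor Ccrl2 at 506 against 330.3 CPM. Arhgap10 was 1.58, 1.29 and 2.81 times the level of R, L and M. The glutathione peroxidase gene Gpx3 was higher than in each class, at 1.45, 1.61 and 3.01 times R, L and M, as was Arhgap19, at 1.47, 1.403 and 2.199 times. Gpx3 was seen in 8.38% of thinned members and 31.3% of fibroblasts, and Airn in 7.65% and 15.7%, and the part of free RNA in their levels was not tested.

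Mgp, a matrix calcification inhibitor of fibroblasts, was at 276 CPM in members against 123 to 155 CPM in the 3 other classes and 429.9 CPM in unclassed cells. Thinned, 9.34% of members had a UMI, against 9.97% of R, 89.8% of fibroblasts and 35.5% of endothelial cells. The top 5% of members held 76.4% of its UMIs. The ratio over all others was 1.43, and 0.894 with cells thinned to 2000 UMIs. Where M was the next highest score Mgp stood at 839 CPM, against 141 CPM where L was, and the collagen gene Col1a1 at 233 against 50.5 CPM. The part of fibroblast RNA in these Mgp levels was not tested.

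**Figure D3:**
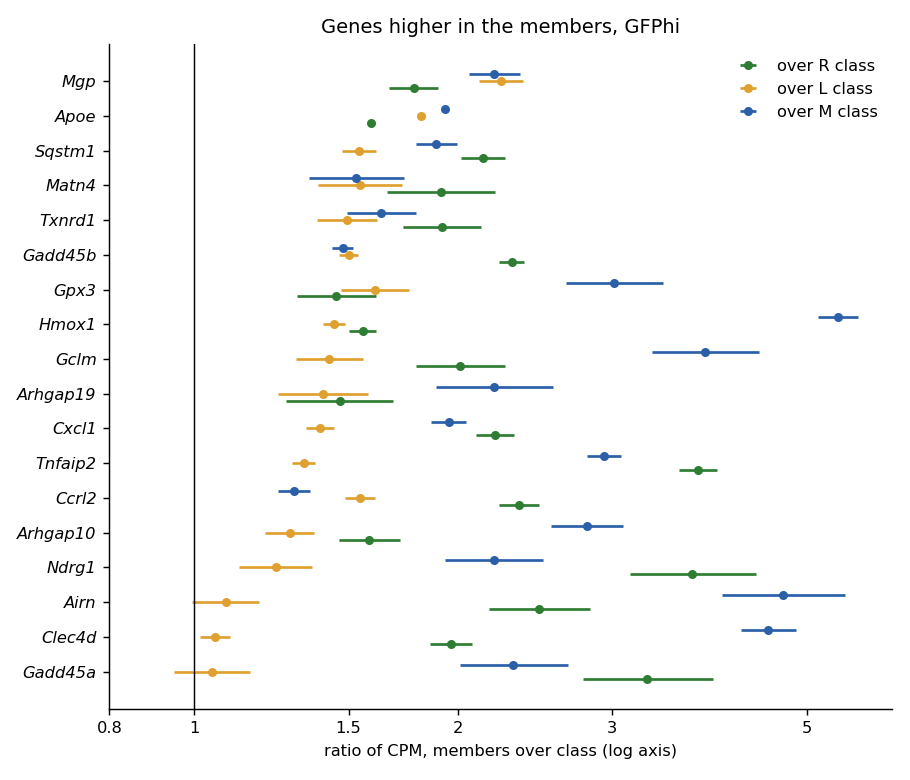
Ratios of CPM (log axis) of members over the R, L and M classes of GFPhi for the named higher genes, with exact 95% intervals. Apoe, Sqstm1, Txnrd1 and Gadd45b lie above 1 for all 3 classes, while Airn, Clec4d and Gadd45a lie close to 1 over L.

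The antioxidant response was the list with the most higher genes. Of its 16 measured genes, 7 were at least 1.5-fold higher in members than in all other gated macrophages and 0 lower, against 0.779% higher and 3.54% lower of all measured genes, and the median ratio was 1.29 (0.961 over all measured genes). The 7 were Osgin1 (2.41), Srxn1 (2.05), Hmox1 (2.01), Gclm (1.96), Sqstm1 (1.73), Txnrd1 (1.62) and Slc7a11 (1.52). Gclm encodes a subunit of the enzyme that limits glutathione synthesis, Slc7a11 imports cystine and Srxn1 repairs peroxiredoxins. Over L the median ratio was 1.02, over R 1.59 and over M 1.62. Among 13 iron and haem genes, 2 were higher, Slc40a1 (2.49), the iron exporter ferroportin, and Hmox1, and 1, Cp, was lower (0.103), with a median of 1.203. The ferritin genes Fth1 and Ftl1 stood at 1.203 and 1.16 times the level of all others.

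Hmox1, which encodes the haem-degrading enzyme haem oxygenase 1, stood at 891 CPM in members, 573 in R, 617 in L, 164 in M and 325 CPM in unclassed cells. Its UMIs lay in few cells. The 5% of members highest in Hmox1 (70 cells) held 76.6% of its UMIs, and without the highest 5% of each class the level was 224 CPM in members, 233 in R and 262 in L. Thinned, 21.5% of members, 22.4% of R, 22.4% of L and 11.3% of M had a Hmox1 UMI. These 70 cells, chosen by Hmox1, had Slc40a1 at 189 against 34.1 CPM in the other 1334 members, Srxn1 at 207 against 19.6 and Gclm at 545 against 62.1 CPM. Spic, the haem-induced transcription factor of iron-recycling macrophages, was 8.12 times higher, Slc7a11 6.26, Slc48a1, a haem transporter, 4.07, and Fth1 2.09 times. Gdf15 differed little, at 3305 against 3011 CPM, while Apoe stood at 0.571, Cdkn1a at 0.546 and Cxcr4 at 0.423 times the level of the other members. They had a median of 9979 UMIs against 6872, and 39 haemoglobin UMIs against 17 in the other members. Without the 5% highest in Hmox1 of each class, a setting chosen after these values were seen, the ratio over all others was 1.21 for Hmox1, 1.65 for Gclm, 1.44 for Srxn1, 1.66 for Sqstm1, 1.53 for Txnrd1, 2.17 for Osgin1, 2.59 for Slc40a1 and 1.33 for Slc7a11. The median of the antioxidant list was then 1.12. Other genes lay in few cells too. The 5% of members highest in the gene itself held 67.5% of Slc40a1, 65.3% of Srxn1 and 64.6% of Osgin1 UMIs. For Gclm, Txnrd1 and Sqstm1 the shares were 46.2%, 25.9% and 23.6%. Without the 5% of each class highest in Slc40a1, its level was 15.5 CPM in members, 15.6 in R and 3.65 in L. It was then 0 in M and unclassed cells.

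Lipid and lysosome genes stood between the classes. Of 19 lipid genes, 1 (Apoe) was higher and 1 lower, the lipoprotein lipase gene Lpl at 95.6 against 172 CPM. The median was 0.98 over all others, 0.671 over L, 1.46 over R and 1.59 over M. Trem2, a receptor for lipids and dying cells, stood at 1573 CPM, between R (817) and L (1717), and Spp1 (osteopontin) at 1378 against 3696 CPM in L. None of 29 lysosome genes passed 1.5-fold either way, with a median of 1.06. The lysosomal acid lipase gene Lipa was the highest of them at 1.29. None of 7 cholesterol synthesis genes passed, with a median of 0.893, and of 15 genes for uptake of apoptotic cells 1, the bridging molecule gene Mfge8, was lower (0.375). Of 14 enzymes and receptors of phospholipid, leukotriene and prostaglandin mediators, 6 were lower and 0 higher. Of all measured genes, 3.54% were lower and 0.779% higher. The median of the 14 was 0.863 over all others, 0.685 over R and 0.879 over M, but 1.30 over L. Among the lower genes were Alox5 (0.231) and Ltc4s (0.23), which make leukotrienes, and the receptor genes Cysltr1 (0.369) and Ptger4 (0.634).

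**Figure D4:**
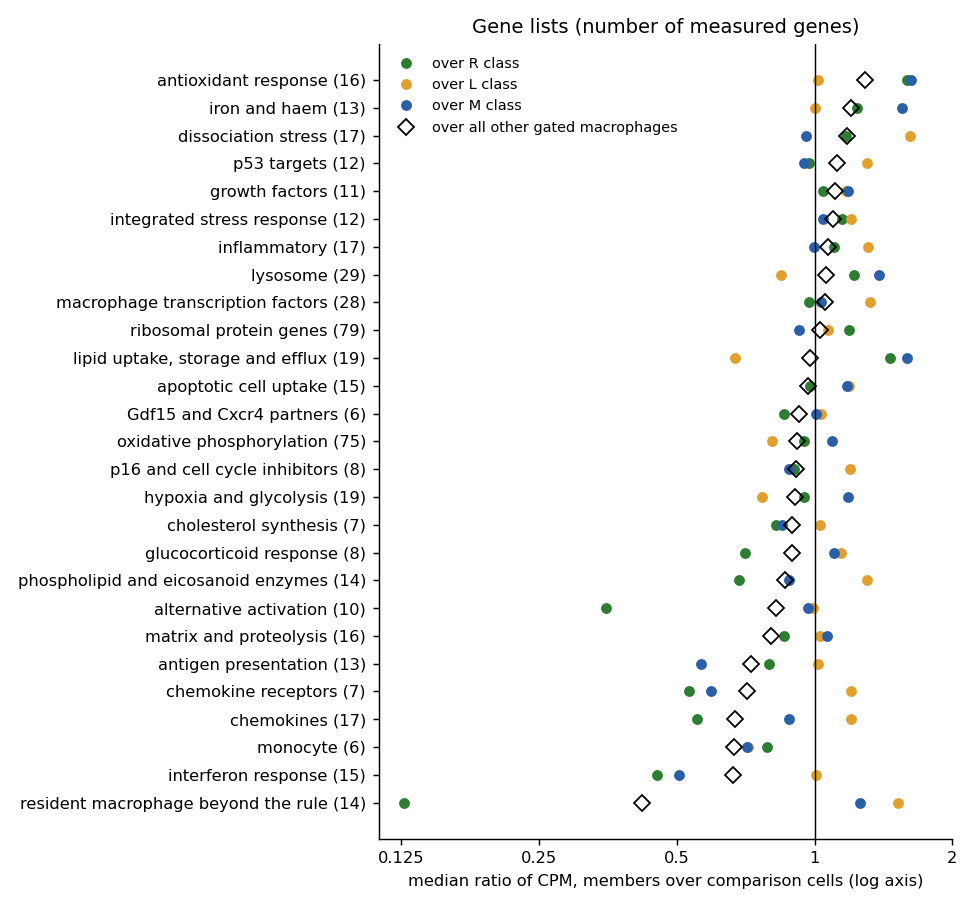
Median ratio of CPM (log axis) in each gene list, members over all other gated macrophages (diamonds) and over the R, L and M classes (points); numbers of measured genes are in brackets. The antioxidant list has the highest diamond (1.29) and the resident list the lowest (0.419), where the R point lies lowest too.

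In the stress and growth lists few genes passed 1.5-fold over all others, where 0.779% of all measured genes were higher and 3.54% lower. Of 12 integrated stress response genes, 1 (Slc7a11) was higher, with a median of 1.097. Atf4 and Ddit3, the pathway's transcription factors, stood at 1.06 and 1.14. Of 12 p53 targets, 0 were higher and 1 (Pmaip1) lower (0.577), with a median of 1.12. Cdkn1a, the p53-induced inhibitor p21, stood at 839.7 CPM in members, 672 in R, 380.3 in L, 898 in M and 916 CPM in unclassed cells, so members lay within the other classes. Of 17 dissociation stress genes, 0 were higher and 1 lower, with a median of 1.18, and the part of dissociation in the stress genes was not tested. Among 11 growth factors, Igf1 stood at 636 CPM in members against 589 in L and 201 in M, and 1 of them, Bmp2, was lower (0.339). None of 17 inflammatory genes passed 1.5-fold, with a median of 1.07. Of 28 macrophage transcription factors, Tfec (1.51) was higher and Hes1 (0.471) lower. None of 6 measured Gdf15 and Cxcr4 partner genes, 8 glucocorticoid response genes, 75 oxidative phosphorylation genes or 79 ribosomal protein genes passed, with medians of 0.923, 0.893, 0.917 and 1.03. Of 19 hypoxia and glycolysis genes, 1 (Ndrg1) was higher, with a median of 0.907. Against single classes these medians lay further apart. Dissociation stress stood at 1.17 over R, 1.61 over L and 0.957 over M, p53 targets at 0.972, 1.301 and 0.946, and inflammatory genes at 1.104, 1.31 and 0.999. The glucocorticoid list stood at 0.705 over R and 1.14 over L, and the integrated stress response at 1.15 over R, 1.200 over L and 1.04 over M.

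Cdkn2a, whose locus encodes p16, had 0 UMIs in members, which allows up to 0.29 CPM. It had 32 UMIs in R (3.68 CPM), 4 in L, 2 in M and 16 in unclassed cells. The reporter transcript mGFP stood at 33.1 CPM in members and 30.9 in all others, a ratio of 1.07 (0.949–1.21) whose interval includes 1. No CreERT2 UMI was seen in members. Of 8 measured p16 and cell cycle inhibitor genes, none passed 1.5-fold.

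Several lists held lower genes, where 3.54% of all measured genes were at least 1.5-fold lower and 0.779% higher. Of 14 resident genes outside the R score, 9 were lower and 0 higher. Their median was 0.419 over all others and 0.127 over R, but 1.52 over L and 1.26 over M. The rule required a lower R score in members, so resident genes that travel with it were set low by the choice. Lyve1 stood at 1.45 CPM against 348 CPM in R, and F13a1 at 0.283 and C4b at 0.24 times the level of all others. Saa3, an acute phase gene, stood at 0.193 times. Igha stood at 1.26 CPM against 331 CPM in M, a ratio over all others of 0.0162 that became 2.23 without the 5% of cells highest in UMIs. Npy stood at 38.1 against 269 CPM in L.

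Of 13 antigen presentation genes, 5 were lower and 0 higher, against 3.54% lower and 0.779% higher of all measured genes. Their median was 0.727 over all others, 0.797 over R, 1.02 over L and 0.565 over M. The rule required a lower M score in members, so genes that travel with MHC class II were set low by the choice. Cd74, the invariant chain of MHC class II, stood at 889 CPM in members, 971 in R, 1278 in L and 14110.2 CPM in M. H2-DMb1, a peptide-loading gene, was lower than in each of R, L and M, at 0.766, 0.701 and 0.114 times. Of 6 monocyte genes, 3 were lower, with Ccr2, the receptor of Ccl2, at 12.4 CPM in members, 11.03 in L, 43.9 in R and 216 CPM in M. Of 15 interferon genes, 8 were lower and 0 higher, with medians of 0.452 over R, 0.505 over M and 1.01 over L. Ifi27l2a stood at 289.9 against 894 CPM in all others. Ccnd1, a cyclin, stood at 40.5 against 113 CPM.

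Of 17 chemokines, 8 were lower and 1 (Cxcl1) higher, against 3.54% lower and 0.779% higher of all measured genes. Their median ratio was 0.669 over all others, 0.555 over R and 0.88 over M, but 1.203 over L. Ccl6 and Ccl9 were lower than in each class: Ccl6 stood at 124 CPM in members, 208 in L, 292 in M and 1097 in R, and Ccl9 at 67.3, 116, 196 and 360.1 CPM. Ccl8, named in the study's title, stood at 279 CPM in members, 1566 in R, 109.6 in L and 111 CPM in M. The top 5% of members held 67.7% of its member UMIs. Ccl3 and Ccl4, attractants of monocytes and T cells, stood at 1.36 and 1.35 times the level of all others, between L and M. Of 7 chemokine receptors, 2 were lower, Ccr1 (0.255) and Ccr2. The median of the receptors was 0.531 over R and 0.593 over M, but 1.199 over L.

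Of 10 alternative activation genes, 4 were lower and 0 higher, against 3.54% lower and 0.779% higher of all measured genes. Their median was 0.823 over all others, or 1.02 with cells thinned to 2000 UMIs. Over single classes it was 0.349 for R, 0.994 for L and 0.967 for M. Arg1, arginase 1, stood at 6.87 CPM in members (71 UMIs), 18.1 in M, 21.4 in L, 79.1 in unclassed cells and 246 CPM in R, and was lower in members than in each class. Of 16 matrix and proteolysis genes, 5 were lower, among them Fn1, fibronectin, at 65.3 against 208 CPM. Their median was 0.804 over all others, or 1.00 after that thinning, and 0.858 over R, 1.03 over L and 1.06 over M. Itgam, an integrin, was lower than in each class, at 0.224, 0.791 and 0.468 times R, L and M. So were Crip1 (0.452, 0.53 and 0.718), Ifi30 (0.765, 0.685 and 0.68), Mcub (0.574, 0.749 and 0.568), Cnn2 (0.687, 0.711 and 0.642) and Evl (0.769, 0.765 and 0.76).

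The members were not uniform. The next highest score was L in 904 members (64.4%), M in 267 (19.02%) and R in 233 (16.6%), and it was itself above 0.5 in 556, 109 and 60 of them. Gdf15 stood at 3247, 2739 and 2382 CPM in these 3 groups, in that order. Tnfaip2 stood at 876, 605 and 579 CPM, Apoe at 29231, 24184 and 22326, and Hmox1 at 866, 471 and 1443 CPM. Cxcr4 went another way, at 145, 189 and 120.3 CPM. Cd74 stood at 3672 CPM where M was next and at 371 and 288 CPM elsewhere, which follows the score.

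To look along the G score with the other scores held low, 2122 gated GFPhi cells with R, L and M scores of 0.5 or less were put in order of G score and divided into 4 groups of like size, as decided after seeing the data. From the lowest group to the highest, they held 531, 530, 530 and 531 cells, of which 0, 0, 148 and 531 were members, with median depths of 5044, 5846, 6075 and 6464 UMIs. Apoe stood at 14899, 20949.5, 25949.6 and 26209 CPM in that order, a ratio of 1.76 (1.74–1.78) of the highest to the lowest. Tnfaip2 stood at 282, 343, 487 and 679.6 CPM, and Lipa at 179.6, 233, 262 and 347 CPM. Slc40a1 stood at 7.76, 11.2, 20.6 and 36.5 CPM. These genes were highest in the top group, but Apoe was about level over the upper groups, with overlapping intervals (25776–26124 and 26043–26376). Of the rule genes, Gdf15 stood at 8.12, 50.2, 308 and 2790 CPM. Cxcr4 stood at 14.1, 80.0, 161 and 150 CPM, and Pla2g7 at 24.4, 163, 305 and 273 CPM, so the top group was set apart by Gdf15. Hmox1 did not follow the order, with 332, 371, 276 and 810.2 CPM. Arg1 stood at 160.2, 43.5, 29.1 and 5.801 CPM, Fn1 at 541, 211, 150.2 and 78.5, and Ccr2 at 61.8, 51.1, 29.7 and 12.98 CPM, all lowest in the top group. Depth rose along the groups as well, and so did the L-score gene Gpnmb, at 93.2, 124, 169 and 232 CPM, a ratio of 2.49 (2.17–2.87), so the L genes were held under a limit and not level. Of the other L-score genes, Mmp12 had a ratio of 1.16 (0.846–1.61) and Atp6v0d2 of 1.63 (0.81–3.43). The part of depth and of the L genes in these levels was not tested.

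**Figure D5:**
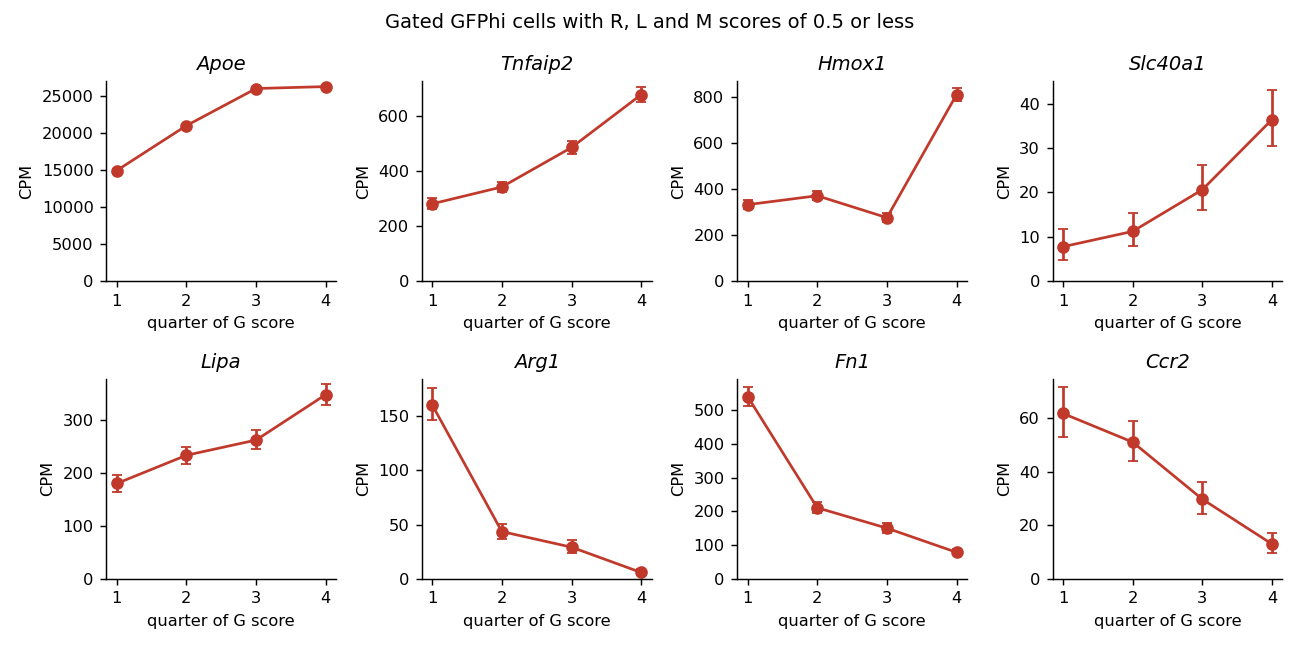
Levels (CPM) of 8 genes in 4 groups of rising G score among gated GFPhi cells with R, L and M scores of 0.5 or less, with exact 95% Poisson intervals. Tnfaip2, Slc40a1 and Lipa are highest in the top group, Arg1, Fn1 and Ccr2 lowest, and Hmox1 is high in the top group alone. Apoe rises and is about level over the upper groups.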

How the data were processed

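The deposited files held whole-number UMI counts for 32285 Ensembl genes and 2 reporter features per barcode, 1 matrix per library. A SeekOne 3′ droplet kit made the libraries, per the labels' protocols, although a different label field has 10x Genomics. The submitters' processing notes name the build mm10. The aligner, counting program and cell calling were not given in the sources used here. Gene positions came from GENCODE vM21, which matched 32158 of the identifiers, and promoters from RefSeq (GRCm38.p6).

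The members and gene lists were chosen with earlier results of these data known. Cells were filtered, gated and scored as described above, over both libraries together. The filter removed 305 GFPhi barcodes and 385 GFPlo barcodes, and 505 and 7 C1q-positive cells were left out as cycling. No doublet caller was run. UMIs were summed over the cells of a class and given as CPM. Ratios have exact conditional intervals, shares Clopper-Pearson intervals and levels Poisson intervals, all at 95%. For levels in CPM, a count of 0 UMIs was read as allowing 3 counts. Genes with at least 10 CPM in either arm were measured, without the genes of the gate and scores. No p-value was computed, since cells of 1 library are not replicates. Thinning to 1000 UMIs used a fixed seed and left out shallower cells, 44 of them members. Reference cells had C1q sums under 30 per 10000 and either at least 30 of Col1a1, Col1a2 and Dcn or at least 10 of Pecam1, Cdh5 and Kdr. Named genes were the 15 higher and 15 lower ranked by the interval bound closer to 1, where a gene had 50 CPM and 20 UMIs or more, the 10 with the largest smallest ratio over R, L and M and the 10 with the smallest largest ratio, the 4 of each list furthest from 1, and a fixed set with the rule genes, Cdkn1a, Cdkn2a, Ccl8 and the reporter features. Other list genes in the text were named after their values were seen. Alternatives were median-of-ratios scaling, no minimum level, means over cells, depth and mitochondrial limits, thinning, other score limits, and leaving out mixed or high-UMI cells. The ratio computation was tested on simulated counts. Python 3.11.15, numpy 2.4.6, scipy 1.17.1 and pandas 2.3.3 were used.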

Additional observations from a re-analysis of the deposited data

How the results depend on the processing

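The share of members among gated GFPhi macrophages was 19.7%, and became 20.9% after thinning cells to 2000 UMIs, 14.6% with a G score over 1.0, 13.5% with G highest by at least 0.5 and 9.51% (679 cells) without members that had another score over 0.5, the last chosen after seeing the data. Of 1330 members deep enough, 1090 (82.0%) remained members after thinning. The count of 8 genes at least 2-fold higher became 118 with no minimum CPM, 13 as a mean over cells, 13 with a G score over 1.0 and 19 without members that had another score over 0.5, and the 108 lower genes became 862 with no minimum CPM. Median-of-ratios scaling gave 11 higher and 96 lower. Among 2002 values for 143 named genes, 440 moved outside the counting interval of the reported value, and 8 turned direction: Igha (2.23) and Mgp (0.935) without the top 5% of UMIs, Mgp (0.894) and Timp3 (1.25) after thinning, Sparc against R, L and M alone (1.03), and Sparc (1.20), Timp1 (1.07) and Atf5 (0.906) without members that had another score over 0.5. Among 378 values for 27 lists, 19 moved by 1.1-fold or more, and alternative activation (1.02) and matrix and proteolysis (1.00) turned after thinning. The causes were not tested. Apoe stayed between 1.55 and 1.78 and Tnfaip2 between 1.72 and 2.12 over these settings. Leaving out 11 members with mixed markers kept the counts within 1.5 times. No paired analysis was possible because each fraction had 1 library and the labels carry no replicate numbers. Cdkn2a UMIs were few in every class, and the part of depth in this was not tested. The GFPlo macrophages were only 48 cells.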

Other observations

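Gdf15 was also present outside the gated cells. In the 505 cycling C1q-positive cells of GFPhi, left out of the gate, Gdf15 stood at 468 CPM, and 46 of them (9.11%, 6.75–12.0) met the member rule on the same scale, at a median of 13332 UMIs. The 2483 kept GFPhi cells outside the C1q gate stood at 148 CPM and held 8.31% of the library's Gdf15 UMIs. The 11959 kept cells of GFPlo held 988 Gdf15 UMIs, or 9.45 CPM, against 592.5 CPM over all kept cells of GFPhi. Gated macrophages were 0.401% of the kept GFPlo cells and 70.5% of the kept GFPhi cells, so these sums are over different mixes of cells.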
